A study of Mus musculus with 6 samples.

Results

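The DNA replication machinery was described here by 33 genes: factors that mark and license origins, the MCM helicase, Cdc45 and the GINS complex, the replicative polymerases with primase, the PCNA clamp with its loader, the enzymes that finish the lagging strand, and enzymes that supply nucleotides. All 33 were chosen by name, with earlier results of these data known, and all 33 were among the 18193 genes measured. Each was represented by the probe set (a group of array probes for 1 transcript) that names 1 gene and had the highest mean over 6 arrays.

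In every S phase the origin recognition complex (ORC), with Cdc6 and Cdt1, loads the MCM helicase onto DNA in an inactive form. Cdc45 and GINS join it to make the active helicase, polymerase alpha with primase lays down primers, and polymerases epsilon and delta extend them while held by the PCNA clamp. Mouse embryonic stem (ES) cells, pluripotent cells from the early embryo, spend much of their cycle in S phase and are known for high levels of licensing factors. Many of these genes are known targets of the E2F transcription factors.

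RNA came from 3 haploid ES cell lines, which carry 1 set of chromosomes, and from 3 male diploid ES cell samples, with 1 Affymetrix array each. The haploid lines were HAP1 at passage 24 and HAP2 at passage 21, both F1 CBAxB6, and HTG1 at passage 11, labelled mixed transgenic. The diploid samples were labelled 129Sv for replicates 1 and 2 and 129 for replicate 3, with no line named. All grew in 2i medium, which blocks the kinases MEK and GSK3, and RNA was taken on day 2 after passaging. Strain, the sex chromosomes and ploidy differed together and cannot be told apart. The labels name neither the transgene of HTG1 nor how many cells had kept 1 chromosome set. The diploid samples are titled biological replicates without saying whether they were separate lines, so p-values measure the spread between these arrays.

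Values are log2 signals with nearly, but not exactly, the same distribution on every array. Such scaling hides any shift in a cell's total RNA. In bulk samples fewer cells of a type and less RNA per cell cannot be told apart. The array medians lay between 6.31 and 6.34 and the lower quartiles between 4.80 and 4.87. None of 8 ES cell markers, among them Pou5f1, Sox2 and Nanog, was under the lowest array's lower quartile of 4.80 throughout a group. Of the 8, 3 were higher and none lower by the limma test described next (1 lower at an unadjusted p under 0.05), and their summed linear signal was 63800 to 66000 in the diploid and 69600 to 77200 in the haploid arrays. Of 8 fibroblast markers, 1 was lower and none higher in the haploid lines by that test, and 6 were lower and none higher at an unadjusted p under 0.05. Their summed signal was 873 to 1600 in the diploid and 421 to 541 in the haploid arrays, and 2 of the 8 were under the lower quartile in every haploid array. Of 7 measured markers of endoderm, mesoderm and neural cells, 1 was lower and none higher (also at an unadjusted p under 0.05), with sums of 787 to 990 and 683 to 756. The signal of the beta-actin control at its 3′ end exceeded that at its 5′ end by 0.34 to 0.46 (log2) in the diploid and 0.18 to 0.24 in the haploid arrays. The part of these differences in the values that follow was not tested.

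The 3 haploid arrays were compared with the 3 diploid arrays. Of the 33 genes, 4 were lower in the haploid lines and 1 was higher: the licensing factors Cdt1 and Cdc6, the helicase subunit Mcm5 and the GINS subunit Gins3 fell by 1.39-fold to 1.5-fold, and the thymidylate synthase Tyms rose 2.15-fold. A gene passed when its limma p, adjusted by Benjamini-Hochberg over all genes, was under 0.05. Of the 33 genes 12.1% were thus lower and 3.03% higher, against 6.96% and 7.92% among all genes and 9.21% and 12.7% among genes above the median level. The lower share was near that of genes above the median level. The median log2 difference of the 33 genes, haploid minus diploid, was -0.17, against -0.03 over all genes and 0.04 over genes above the median level, where 32 of the 33 lie. The exception was Tyms.

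**Figure D1:**
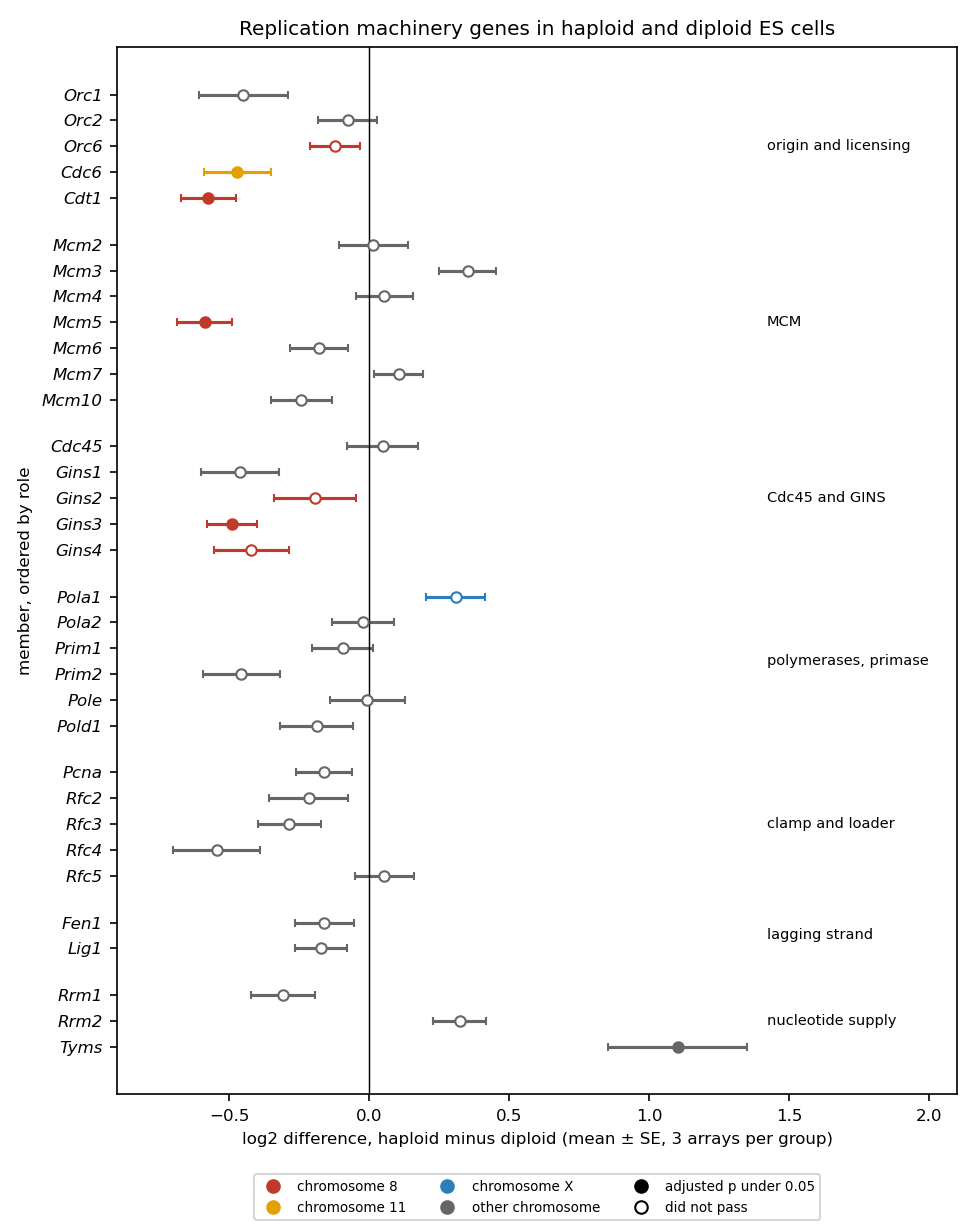
Each point is the log2 difference of 1 gene, haploid minus diploid (horizontal axis, log2 units), with its moderated SE from 3 arrays per group, and genes are ordered by role. Filled points passed; all 4 filled points below 0 are on chromosome 8 (Cdt1, Mcm5, Gins3) or 11 (Cdc6), and the filled point above 0 is Tyms at 1.10.

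The array measured RNA, not promoter activity. Mcm5 and Cdt1, among the members that fell, and Tyms, the member that rose, had the smallest p in their direction. Their 250 bases before the start site are shown. They are from RefSeq on GRCm38.p6, at chr8:75109259-75109508 on the plus strand for Mcm5, chr8:122567765-122568014 on the plus strand for Cdt1 and chr5:30073626-30073875 on the minus strand for Tyms. Each is written 5′ to 3′, and capitals mark E2F-type words.
Mcm5: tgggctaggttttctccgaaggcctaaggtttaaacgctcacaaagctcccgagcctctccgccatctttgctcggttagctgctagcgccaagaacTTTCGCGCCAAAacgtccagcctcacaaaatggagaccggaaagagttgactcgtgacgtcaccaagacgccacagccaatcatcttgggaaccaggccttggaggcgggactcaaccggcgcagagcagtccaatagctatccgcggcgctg
Cdt1: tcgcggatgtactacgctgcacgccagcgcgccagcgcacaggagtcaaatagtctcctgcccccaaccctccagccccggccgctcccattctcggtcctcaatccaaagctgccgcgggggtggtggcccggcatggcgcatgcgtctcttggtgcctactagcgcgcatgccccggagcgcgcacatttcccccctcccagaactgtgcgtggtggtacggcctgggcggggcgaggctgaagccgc
Tyms: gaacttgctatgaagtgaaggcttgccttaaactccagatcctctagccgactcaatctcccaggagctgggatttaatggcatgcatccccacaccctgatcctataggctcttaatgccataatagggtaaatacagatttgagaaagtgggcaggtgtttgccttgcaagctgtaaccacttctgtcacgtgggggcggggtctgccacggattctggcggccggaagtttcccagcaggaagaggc

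The words searched were TTTCCCGC, TTTGGCGC, TTTCGCGC and TTTGCCGC, on both strands, from 250 bases before to 50 after the start site. In Mcm5 TTTCGCGC, which starts 153 bases before the start site, and TTTGGCGC on the other strand, from 149 bases before it, overlap. Cdt1 held TTTGGCGC from base 33 after the start site, outside the printed stretch. RefSeq promoters were matched for 26 of the 33 members. At least 1 word stood in 12 of the 26 (46.2%), against 704 of 27025 genes (2.6%) with a promoter in the same table. The 12 were Orc1, Cdc6, Cdt1, Mcm3, Mcm5, Mcm6, Mcm7, Gins3, Pola1, Pold1, Rfc3 and Lig1. All 4 members that fell thus held a word and Tyms held none in this window. Words did not go with direction throughout. Of the 5 members with every haploid value above every diploid value, Mcm3, Mcm7 and Pola1 held a word and Rrm2 and Tyms did not. Rfc4, which differed by -0.55 without passing, held none. The short CCAAT motif, searched on both strands of the same windows, stood in 17 of 26 members (65.4%) and in 41.1% of all genes with a promoter. These matches are descriptions of letters, not of bound sites.

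Among the roles of the 33 genes, origin and licensing had the lowest median log2 difference in the deposited values, -0.45 over 5 genes. Cdc45 with GINS was close, at -0.42 over 5 genes. The median of -0.45 is the value of Orc1, which did not pass. Of the 5 origin and licensing genes, 2 were lower and 0 higher (3 lower and 0 higher at an unadjusted p under 0.05 in limma). Over all genes 15.8% were lower and 15.4% higher at that unadjusted p, and over the 33 genes 11 and 4. Cdt1 and Orc6 are on chromosome 8 and Cdc6 on chromosome 11, where genes in general were lower in the haploid lines. The 13 other origin and licensing genes described below had a median of -0.05. Cdt1, which brings MCM to the origin and is kept in check by geminin, had log2 values of 13.52, 13.41 and 13.40 in diploid replicates 1 to 3 and of 12.79, 12.82 and 13.00 in HAP1, HAP2 and HTG1. All haploid values were below all diploid values, and Cdt1 fell by 0.57 ± 0.10 on the log2 scale (SE, n = 3 arrays per group, limma adjusted p = 0.0124). It stayed under 0.05 whichever array was left out, at 0.0163 to 0.0485. Its second probe set, also bright, differed by -0.38 (limma adjusted p = 0.0535 over all probe sets).

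Cdc6, the ATPase that works with ORC to load MCM, stood at 11.12, 10.86 and 10.96 in the diploid arrays and at 10.67, 10.38 and 10.47 in HAP1, HAP2 and HTG1. The groups did not overlap, and Cdc6 fell by 0.47 ± 0.12 (log2, SE, limma adjusted p = 0.0406). That call was lost without HAP2 (0.123), HTG1 (0.0943) or any one of the diploid replicates (0.0754 to 0.117), and it held without HAP1 (0.0352). Orc1, the ORC subunit that comes and goes with the cell cycle, stood at 10.33, 10.46 and 10.50 in the diploid arrays and at 10.32, 9.76 and 9.86 in HAP1, HAP2 and HTG1. HAP1 lay just under the lowest diploid value, and the other haploid lines lay well below. The log2 difference of Orc1 was -0.45 ± 0.16 (limma adjusted p = 0.104), and without HAP1 it was -0.62 and passed (0.0207). Without HAP2 it was -0.34 (0.258), and without HTG1 or a diploid replicate the limma adjusted p was 0.132 to 0.253. A dimmer second probe set of Orc1 differed by 0.15, and the mean of both by -0.15 (0.619). The other ORC subunits among the 33 genes did not pass: Orc2 differed by -0.08 (95% interval -0.32 to 0.17) and Orc6 by -0.12 (-0.33 to 0.09).

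The 6 subunits of the MCM ring did not move together. Mcm5 was lower, and the other 5 did not pass, with differences from -0.18 (Mcm6) to 0.35 (Mcm3). Mcm5 stood at 12.97, 12.95 and 12.97 in the diploid arrays and at 12.53, 12.30 and 12.30 in HAP1, HAP2 and HTG1. The diploid values were nearly equal and every haploid value was below them. Mcm5 fell by 0.59 ± 0.10 (log2, SE, limma adjusted p = 0.0118), or 1.5-fold. Leaving out diploid replicate 3 gave a limma adjusted p of 0.055. The brightest probe set of Mcm5 is of a kind that may match several transcripts; the next differed by -0.38 (limma adjusted p = 0.0972 over all probe sets) and the dimmest by -0.83 (0.0338).

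Mcm3 was the subunit with the highest difference. Its values were 12.15, 12.18 and 12.15 in the diploid arrays and 12.59, 12.35 and 12.60 in HAP1, HAP2 and HTG1. All haploid values were above all diploid values, by less in HAP2. The log2 difference was 0.35 ± 0.10 (limma adjusted p = 0.0605); 3 of its other probe sets differed by 0.10 to 0.25, and the dimmest, at a mean of 6.37, by -0.49. Mcm2 differed by 0.02 (95% interval -0.27 to 0.30) and turned to -0.04 after another quantile normalization. Mcm4 differed by 0.05 (-0.19 to 0.29), turning to -0.04 with chromosome shifts of the brighter genes subtracted. Mcm6 differed by -0.18 (-0.42 to 0.07) and Mcm7 by 0.11 (-0.10 to 0.31). Mcm10, which is no ring subunit but helps to open the helicase, differed by -0.24 (-0.50 to 0.01).

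All 4 GINS subunits had negative differences, and 1 of them passed. Gins2, Gins3 and Gins4 are on chromosome 8, where 81% of genes above the median level were negative and 32.9% were called lower. Over all chromosomes 45.4% of genes above the median level were negative and 9.21% were called lower. Gins3 stood at 8.73, 8.80 and 8.88 in the diploid arrays and at 8.35, 8.26 and 8.34 in HAP1, HAP2 and HTG1. Both groups were tight and did not overlap. Gins3 fell by 0.49 ± 0.09 (log2, SE, limma adjusted p = 0.0156), and leaving out diploid replicate 2, diploid replicate 3 or HAP2 gave limma adjusted p-values of 0.0569, 0.0686 and 0.0573. Its other probe set differed by -0.33 (0.0587 over all probe sets).

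Gins1 stood at 11.09, 11.20 and 11.24 in the diploid arrays and at 10.95, 10.75 and 10.46 in HAP1, HAP2 and HTG1. The groups did not overlap and HTG1 was the lowest. The log2 difference was -0.46 ± 0.14 (limma adjusted p = 0.0673). It was -0.58 without HAP1, where it passed (0.0375), and -0.33 without HTG1 (0.127), and without HAP2 or a diploid replicate the limma adjusted p was 0.0923 to 0.189. A dim second probe set of Gins1 differed by 0.51, and the mean of both by 0.025 (0.92). Gins4 stood at 11.45, 11.23 and 11.29 in the diploid arrays and at 11.13, 10.71 and 10.86 in the haploid lines, without overlap. Its log2 difference was -0.42 ± 0.13 (limma adjusted p = 0.0782). It was -0.54 without HAP1, where it passed (0.0377), and -0.33 without HAP2 (0.203), and without HTG1 or a diploid replicate the limma adjusted p was 0.135 to 0.173. Gins2 differed by -0.19 ± 0.15, and its groups overlapped because diploid replicate 1, at 11.35, stood above replicates 2 and 3, at 10.82 and 11.02. Cdc45, the third part of the active helicase, differed by 0.05 (95% interval -0.25 to 0.35), turning to -0.01 after another quantile normalization.

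None of the 6 polymerase and primase genes passed in limma, while 1 was lower and 1 higher at an unadjusted p under 0.05. Prim2, the large subunit of primase, stood at 10.46, 10.26 and 10.32 in the diploid arrays and at 10.08, 9.96 and 9.63 in HAP1, HAP2 and HTG1. The groups did not overlap, and the log2 difference was -0.46 ± 0.14 (limma adjusted p = 0.067). A second probe set of Prim2, of about the same level, differed by -0.07. Pola1, the catalytic subunit of polymerase alpha and the only member on the X chromosome, stood at 10.57, 10.80 and 10.73 in the diploid arrays and at 11.11, 10.997 and 10.92 in the haploid lines. All haploid values were above all diploid values, with a log2 difference of 0.31 ± 0.10 (limma adjusted p = 0.0927). The second subunit Pola2 differed by -0.02 (95% interval -0.28 to 0.24; 0.20 averaged over its probe sets), the primase catalytic subunit Prim1 by -0.09 (-0.35 to 0.16), the leading-strand polymerase Pole by -0.01 (-0.32 to 0.31) and the lagging-strand polymerase Pold1 by -0.19 (-0.50 to 0.12). Probe sets of Pold1 disagreed in sign: the second differed by 0.22.

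None of the 5 clamp and clamp loader genes passed in limma, and 2 were lower at an unadjusted p under 0.05. Rfc4, a subunit of the loader that opens PCNA, had the largest difference of these. Its values were 11.28, 11.20 and 11.07 in the diploid arrays and 10.89, 10.69 and 10.33 in HAP1, HAP2 and HTG1. The groups did not overlap, and the haploid lines were spread over more than the diploid samples. The log2 difference was -0.55 ± 0.16 (limma adjusted p = 0.0595); without HAP1 it was -0.67 and passed (0.0346), without HTG1 it was -0.39 (0.0989), and without HAP2 or any one of the diploid replicates the limma adjusted p was 0.12 to 0.151. The second probe set of Rfc4 passed at -0.67 (0.048 over all probe sets). Rfc3 differed by -0.28 (95% interval -0.55 to -0.02), Rfc2 by -0.22 (-0.55 to 0.12) and Rfc5 by 0.05 (-0.19 to 0.30; -0.02 with chromosome shifts of the brighter genes subtracted). Pcna, the sliding clamp itself, stood at 13.92, 14.04 and 14.03 in the diploid arrays and at 13.97, 13.78 and 13.76 in HAP1, HAP2 and HTG1. HAP1 lay among the diploid samples, and the log2 difference was -0.16 (95% interval -0.40 to 0.07).

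The 2 lagging-strand enzymes did not pass, neither in limma nor at an unadjusted p under 0.05. The flap nuclease Fen1 differed by -0.16 (95% interval -0.41 to 0.09) and the DNA ligase Lig1 by -0.17 (-0.39 to 0.04). All 3 haploid values of Lig1, from 12.08 to 12.27, were below its diploid values, from 12.35 to 12.39.

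The nucleotide supply genes differed from one another in direction. Rrm1 and Rrm2 are the subunits of ribonucleotide reductase, of which Rrm2 is the one that varies with the cell cycle. Rrm2 stood at 13.14, 13.05 and 12.95 in the diploid arrays and at 13.42, 13.38 and 13.32 in HAP1, HAP2 and HTG1. Rrm1 stood at 11.64, 11.58 and 11.71 in the diploid arrays and at 11.49, 11.37 and 11.15 in the haploid lines. Neither pair of groups overlapped: the haploid lines lay above the diploid samples for Rrm2 and below them for Rrm1. The log2 difference was 0.32 ± 0.09 for Rrm2 (limma adjusted p = 0.063) and -0.31 ± 0.11 for Rrm1 (0.118). The dimmest of 3 probe sets of Rrm2 passed at 0.72 (0.00878 over all probe sets), and the mean of all 3 passed at 0.48 (0.0206).

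Tyms, which makes thymidylate from deoxyuridylate, was the dimmest member. It stood at 5.42, 5.78 and 4.96 in the diploid arrays and at 6.63, 6.75 and 6.09 in HAP1, HAP2 and HTG1. The groups did not overlap, and Tyms rose by 1.10 ± 0.25 (log2, SE, limma adjusted p = 0.0294). The call was lost without diploid replicate 1 (0.0662), diploid replicate 3 (0.0906), HAP1 (0.068) or HAP2 (0.0898). The other 3 probe sets of Tyms, all dimmer, differed by -0.12, 0.16 and 0.09, and the mean of the 4 by 0.31 (limma adjusted p = 0.0695).

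Counted by overlap, all 3 haploid values lay below all 3 diploid values for 15 of the 33 genes and above them for 5, and 13 overlapped. Among all genes these shares were 20.2% and 17.7%, and among genes above the median level 21.4% and 26.2%. The differences were small: apart from that of Tyms, the largest was 1.5-fold, that of Mcm5.

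**Figure D2:**
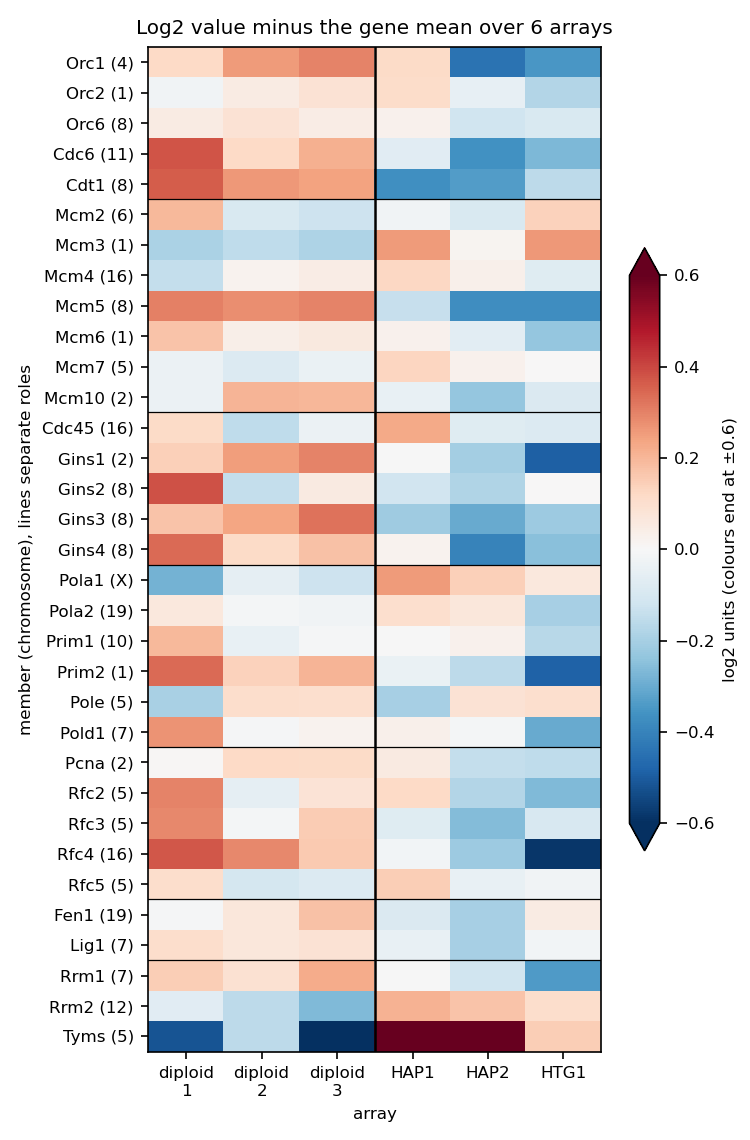
Each row is 1 member (its chromosome in parentheses) and each column 1 array; colour is the log2 value minus the gene's mean over 6 arrays, and the vertical line divides diploid from haploid arrays. Cdt1, Mcm5 and Gins3 are above their mean in every diploid and below it in every haploid array, while HAP1 is paler than HAP2 and HTG1 in rows such as Orc1, Gins4 and Rfc4.

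All 4 members that fell are on chromosomes 8 and 11, where genes in general were lower in the haploid lines. Chromosome 8 holds Cdt1, Mcm5, Gins2, Gins3, Gins4 and Orc6, and chromosome 11 holds Cdc6. Of these 7 genes all had negative differences and 4 passed (57.1%), and the 6 on chromosome 8 had a median log2 difference of -0.45. Among genes above the median level on these chromosomes 78.3% were negative and 31.2% were called lower. On chromosome 8 alone 32.9% of 505 such genes were called lower and 1.78% higher, with a median difference of -0.32. On chromosome 11 alone 30.2% of 792 were lower and 2.65% higher, with a median of -0.27. Of the 26 members elsewhere none was called lower by limma and 1 was called higher, against 5.55% lower and 14.4% higher among 7799 genes above the median level on other chromosomes. At an unadjusted p under 0.05, 6 of the 26 were lower and 4 higher, against 12.6% and 26% of those genes. Their median difference was -0.13, against 0.09 for those genes, and 17 of 26 (65.4%) were negative, against 40%. The 7799 genes include 297 on the X chromosome, of which 72.1% were called higher, while Pola1 is the only X-linked member.

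The 6 members on chromosome 8 had, after centring each gene over 6 arrays, medians of 0.32, 0.18 and 0.21 (log2) in the diploid arrays and of -0.13, -0.32 and -0.19 in HAP1, HAP2 and HTG1. The 505 genes above the median level on that chromosome had medians of 0.15 to 0.17 in the diploid arrays and of -0.19 to -0.16 in the haploid arrays. Both medians were above 0 in every diploid and below 0 in every haploid array.

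**Figure D3:**
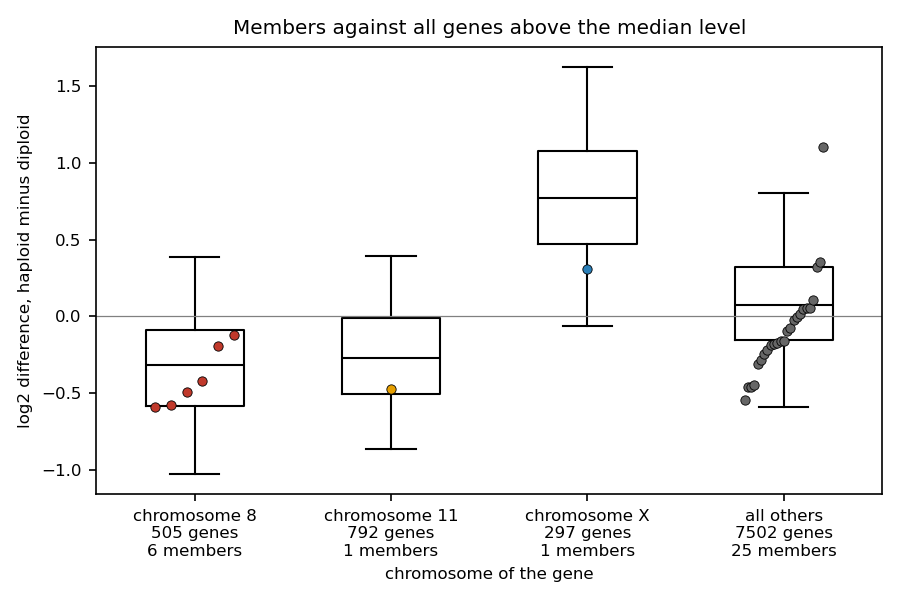
Boxes show the log2 difference, haploid minus diploid (vertical axis), of all genes above the median level by chromosome (middle line median, box quartiles, whiskers the 5th and 95th percentiles), and points are the members there, Tyms included. The 7 members on chromosomes 8 and 11 lie within or at the edge of the boxes, whose medians are -0.32 and -0.27, and Pola1 lies below the box of the X chromosome, whose median is 0.77.

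With the median shift of each chromosome over all its genes subtracted, 1 of the 33 genes was lower, Mcm5 at -0.38 (log2, limma adjusted p = 0.0442), and 1 was higher, Tyms. Cdt1 then differed by -0.37 (0.0512), Gins3 by -0.28 (0.0815) and Cdc6 by -0.30 (0.12). The shift was also computed over genes above the median level, a choice made after seeing the data. Then Mcm5 differed by -0.26 (limma adjusted p = 0.129), Cdt1 by -0.25 (0.128), Gins3 by -0.16 (0.264) and Cdc6 by -0.20 (0.271), and Orc6 and Gins2 turned to 0.21 and 0.13. Under this setting 4 other members were lower: Gins1 (-0.54, limma adjusted p = 0.0424), Prim2 (-0.54, 0.0436), Rfc4 (-0.64, 0.0432) and Pola1 (-0.46, 0.0278). Called lower among all genes were then 8.74%, and called higher 6.3%. Pola1 was above its diploid level as measured but below the shift of the X chromosome, and of 297 X-linked genes above the median level 72.1% were called higher and 0.673% lower.

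**Figure D4:**
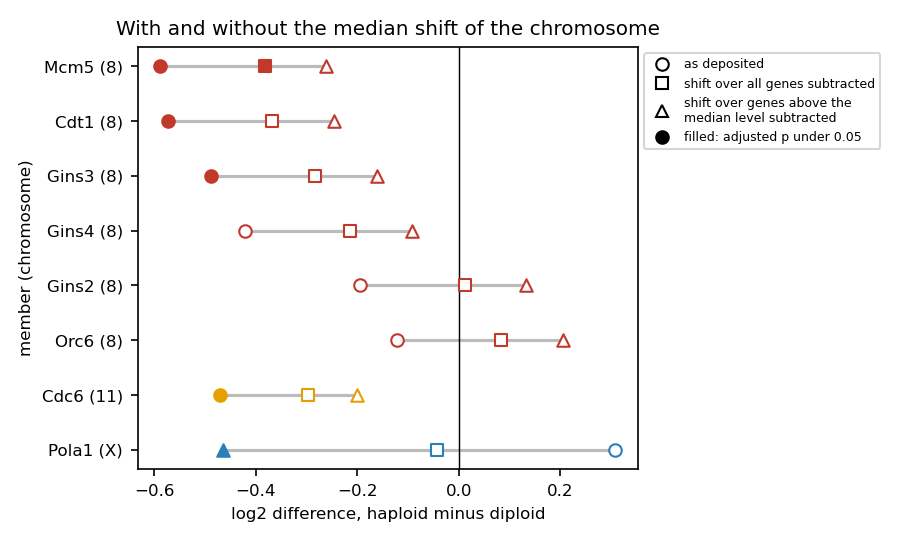
For the 8 members on chromosomes 8, 11 and X (vertical axis), the log2 difference, haploid minus diploid, is shown as deposited (circles), with the chromosome's median shift over all genes subtracted (squares) and with the shift over genes above the median level subtracted (triangles); filled symbols passed. Mcm5 moves from -0.59 to -0.38 and -0.26, and Pola1 from 0.31 to -0.04 and -0.46.

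Among the haploid lines, HAP1 had the highest value for 24 of the 33 members and the lowest for 2, against 30.7% and 36.4% of genes above the median level. HAP2 was highest for 2 and lowest for 13, against 34.1% and 24.6% of those genes, and HTG1 was highest for 7 and lowest for 18, against 35.2% and 39%. Without HAP1, 8 members were lower and none higher in limma: Orc1, Cdc6, Cdt1, Mcm5, Gins1, Gins3, Gins4 and Rfc4. Of all 18193 genes 1033 were then lower and 1395 higher. Cdc6, Cdt1, Mcm5, Gins3 and Gins4 are on chromosomes 8 and 11, where genes in general were lower. Of the diploid samples, replicate 1 was highest for 19 members and lowest for 11, against 45.7% and 38% of genes above the median level. Replicate 2 was highest for 7 and lowest for 15, against 26% and 36%, and replicate 3 was highest for 7 and lowest for 7, against 28.3% and 26%. Leaving out diploid replicate 1, 2 or 3 left 3, 2 and 1 members lower, and without HAP2 there were 2. In the same order, 1082, 518, 399 and 623 of all genes were called lower. The transgenic line HTG1 was set against HAP1 and HAP2 in a fit with 3 groups, in which its single array is assumed to vary like the others. None of the 33 members passed in that limma fit, against 0.374% of all genes, and 3 did at an unadjusted p under 0.05, against 9.17%. These 3 were Rfc4 (-0.47 ± 0.16), Prim2 (-0.39 ± 0.15) and Gins1 (-0.39 ± 0.16, log2, limma adjusted p = 0.474 to 0.534), all lower in HTG1.

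Of 48 further replication genes, 9 were lower and 3 higher in the haploid lines. Of the 9 on chromosomes 8 and 11, 5 were lower and 0 higher, where 31.2% of genes above the median level were lower. Of the 39 on other chromosomes 4 were lower and 3 higher, against 5.55% and 14.4% of such genes there. Among 13 other origin and licensing genes 1 was higher and 1 lower, both subunits of ORC: Orc4 rose 1.5-fold and Orc5 fell 1.44-fold (limma adjusted p = 0.0349 and 0.0307). Orc4 stood at 10.29, 9.90 and 9.83 in the diploid arrays and at 10.52, 10.68 and 10.57 in the haploid lines. Orc5 stood at 11.15, 11.25 and 11.34 in the diploid arrays and at 10.52, 10.77 and 10.87 in the haploid lines. Haploid and diploid values did not overlap for either subunit. The calls of Orc4 and Orc5 were lost without diploid replicate 2 or 3, HAP1 or HAP2, and that of Orc4 without HTG1 as well.

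Among 11 other polymerase and clamp genes 4 were lower (36.4%) and 1 higher (9.09%), against 9.21% and 12.7% of genes above the median level. Atad5, which takes PCNA off DNA, fell 1.65-fold (limma adjusted p = 0.00605), the polymerase delta subunit Pold2 1.68-fold (0.0065) and Chtf8, of the alternative clamp loader, 1.5-fold (0.0161). Atad5 and Pold2 are on chromosome 11 and Chtf8 on chromosome 8. Atad5 and Pold2 passed in all 15 alternatives, chromosome shifts included, at log2 differences of -0.78 to -0.45 and of -0.80 to -0.48. Chtf8 lost its call without diploid replicate 2 or 3 or HAP2 and with chromosome shifts subtracted, where it was -0.25 at the least.

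Among 15 genes of the fork and the lagging strand 3 were lower (20%) and none higher, against 9.21% and 12.7% of genes above the median level. At an unadjusted p under 0.05 in limma 5 were lower and 2 higher, against 15.8% and 15.4% of all genes. Timeless, which protects the fork, fell 1.93-fold (log2 -0.95 ± 0.17, limma adjusted p = 0.0143), the largest of these changes. It stood at 10.85, 10.76 and 10.84 in the diploid arrays and at 10.26, 9.62 and 9.74 in HAP1, HAP2 and HTG1. Every haploid value was below the diploid values, with HAP1 the nearest. The limma adjusted p of Timeless reached 0.064 without diploid replicate 2 or 3. Rnaseh2a, the catalytic subunit of an RNA-removing nuclease, fell 1.40-fold (0.0202) and Wdhd1, which ties polymerase alpha to the helicase, 1.57-fold (0.038). Rnaseh2a, on chromosome 8, was lost without diploid replicate 2 or 3 or HAP2 and with chromosome shifts subtracted, and Wdhd1 without any one of the diploid replicates, HAP2 or HTG1.

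Among 9 other nucleotide supply genes Shmt1, a folate enzyme that feeds thymidylate synthesis, fell 1.62-fold (limma adjusted p = 0.00944) and Dtymk, which phosphorylates thymidylate, rose 1.27-fold (0.042). Shmt1 passed in all 15 alternatives, and Dtymk in 6 of them, none of which left out an array. Among 15 regulators of S phase 1 was higher (6.67%) and 2 were lower (13.3%), against 12.7% and 9.21% of genes above the median level. The activator E2f1 rose 1.59-fold (limma adjusted p = 0.0378), and the repressors E2f8 and E2f7 fell 1.29-fold (0.0344) and 1.47-fold (0.0458). E2f1 stood at 9.68, 9.21 and 9.19 in the diploid arrays and at 10.20, 10.07 and 9.83 in the haploid lines. These 3 calls held in 9 of 15 alternatives each and were lost, among others, without diploid replicate 2 or 3 or HAP2; averaged over probe sets, E2f8 differed by -0.01. Among 14 genes of G2 and mitosis 3 were higher (21.4%) and none lower, against 12.7% and 9.21% of genes above the median level. At an unadjusted p under 0.05 in limma 5 were higher and 1 lower, against 15.4% and 15.8% of all genes. The 3 that passed were the kinases Aurka (1.39-fold, limma adjusted p = 0.0146) and Cdk1 (1.33-fold, 0.0375) and the APC activator Cdc20 (1.26-fold, 0.0398). All 3 calls were lost without diploid replicate 2 or 3 or HAP2, and Aurka turned to -0.23 with the mean of its probe sets.

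**Figure D5:**
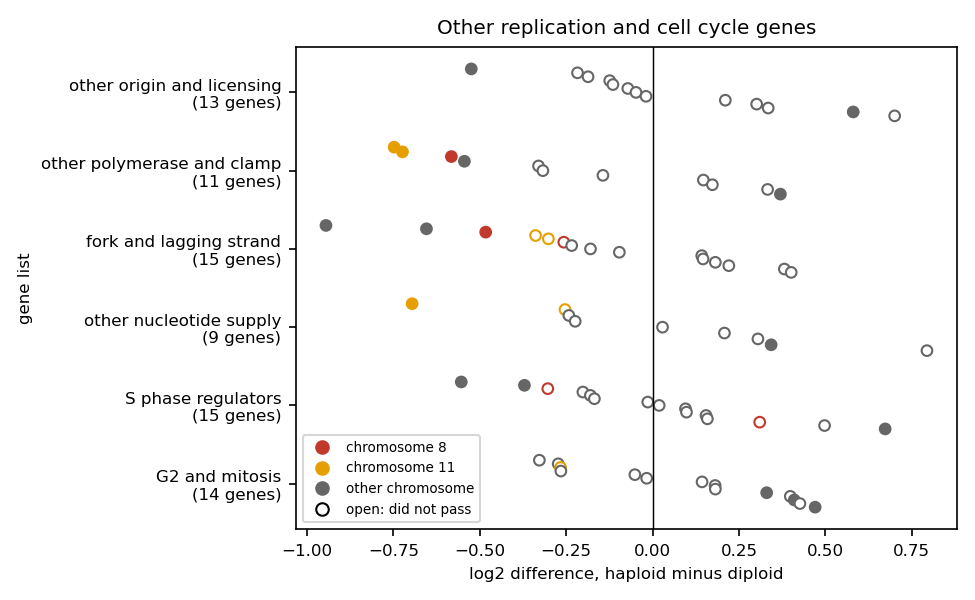
Each point is 1 gene of 6 lists (vertical axis) at its log2 difference, haploid minus diploid; filled points passed and colours mark chromosomes 8 and 11. Filled points at the low end of the polymerase and clamp list are Pold2 and Atad5 on chromosome 11, and the lowest of all is Timeless, at -0.95.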

How the data were processed

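The authors deposited log2 signals, summarised by probe set with RMA, per the submitters' processing notes. That method usually includes background correction and quantile normalization. Its software and version are not given in the sources used here. Of 45101 probe sets, 34945 had 1 gene symbol in GEO's platform annotation, 932 had several and 9160 none; 64 control probe sets were left out. Through Entrez numbers 34741 matched RefSeq genes of GRCm38.p6, which gave chromosomes.

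The brightest probe set stood for each of 18193 genes. The test was limma 3.58.1's lmFit and eBayes under R 4.3.3, two-sided and without covariate or filter, with Benjamini-Hochberg adjustment over all genes. SE is moderated, and intervals are 95%. Simulating the haploid and diploid comparison over 18193 genes, of which 200 were changed, the test recovered 72% of those moved by 1 on the log2 scale and 94% of those moved by 2. Shifts under 1, such as those of every member but Tyms, were not simulated, so these rates do not apply to them. The number of arrays limits the precision.

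Every member is named; of other lists, up to 3 passing genes with the smallest adjusted p were named. Members and lists were chosen with earlier results of these data known. Chaf1a, Ccnb1 and the marker T were not analysed here. Alternatives were another quantile normalization, aligned medians, genes above the median level, mean of probe sets, omission of _x_ and _s_ probe sets, trend and robust eBayes, array weights, subtracted chromosome shifts, each probe set on its own, and omission of each array.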

Additional observations from a re-analysis of the deposited data

How the results depend on the processing

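No paired analysis was possible because only the diploid titles carry replicate numbers. The median difference of the 33 members stayed between -0.22 and -0.12 (log2) in all 15 alternatives. Members called lower (4) numbered 7 among genes above the median level, 7 with array weights, 1 with chromosome shifts subtracted, and 1 to 8 without 1 array. Genes called lower numbered 1026 of the 9096 above the median level, 1802 with array weights and 1081 with chromosome shifts subtracted, against 1266 in the main test. Members called higher (1) numbered 2, 2 and 3 with genes above the median level, array weights and trend and robust eBayes, and 0 to 1 without 1 array. In the same order of settings 1387, 2008 and 1492 genes were called higher, against 1441. Of the other lists, 11 genes were lower (3 to 9 without 1 array) and 7 higher (0 to 5 without 1 array; 3 after another quantile normalization, 12 among genes above the median level, 12 with array weights, 4 with shifts of the brighter genes subtracted). All genes called were 2707, and 970 to 2428 without 1 array; those lower were 1266, and 399 to 1082. With shifts of the brighter genes subtracted 1147 were higher and 1590 lower, against 1441 and 1266. After another quantile normalization 1247 were higher and 1444 lower. The 7 members on chromosomes 8 and 11 had a median of -0.47, or -0.28 and -0.16 with shifts over all and over brighter genes subtracted. No member passed for HTG1 without any other array.

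Signs turned as follows. With shifts over all genes subtracted Orc6 was 0.084, Gins2 0.012 and Pola1 -0.043; over brighter genes Orc6 was 0.21, Mcm4 -0.045, Cdc45 -0.050, Gins2 0.13, Pola1 -0.46 and Rfc5 -0.018. After quantile normalization Mcm2 was -0.037, Cdc45 -0.012 and Rfc5 -0.0014. With the mean of probe sets Mcm2 was -0.045, Gins1 0.025, Pola2 0.20 and Pold1 0.017, and without _x_ and _s_ probe sets Mcm2 was -0.10 and Pold1 0.22. With array weights Pola2 was 0.021. Single probe sets turned for Orc1 (0.15), Mcm2 (-0.10), Mcm3 (-0.49), Mcm4 (-0.0006), Mcm10 (0.14), Gins1 (0.51), Pola2 (0.041 and 0.58), Pold1 (0.22) and Tyms (-0.12). Without 1 array the differences ranged from -0.049 to 0.12 for Mcm2, -0.0055 to 0.10 for Mcm4, -0.054 to 0.12 for Cdc45, -0.076 to 0.074 for Pola2, -0.11 to 0.093 for Pole and -0.0051 to 0.12 for Rfc5. Where these changes were not set by construction, the cause was not tested.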
